A study of Mus musculus with 12 samples.

Results

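The 3 microRNAs (miRNAs) described here, mmu-miR-451, mmu-miR-144 and mmu-miR-486, are known for their abundance in red blood cells and the cells that form them. They were chosen by name, as the array design spells them, out of 650 entries on the array, and all 3 were on it. Adult mice of a strain, genotype and sex not given in the sources used here were kept on a schedule of 12 h of light and 12 h of darkness and ate and drank freely. Collections ran from ZT18 to ZT62 at intervals of 4 h, where zeitgeber time (ZT) counts hours from a lights-on. Equal amounts of RNA from 2 livers were combined at each time and hybridised to 1 one-colour array, so 12 pools gave 6 light-phase and 6 dark-phase arrays. No mouse received any other treatment that the labels name, and all groups shared the schedule and the diet. The study's title names the regulation of daily rhythms by miRNAs in liver as its subject.

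miR-451 and miR-144 are cut from a single primary transcript that the erythroid factor GATA1 switches on. miR-144 is processed by Drosha and Dicer like most miRNAs, whereas the hairpin of miR-451 is cut by Argonaute2 without Dicer. miR-486 comes from an intron of Ank1, the gene of a red cell membrane protein, and is found in muscle as well. miRNAs of red cells persist after the nucleus is lost, so a perfused organ such as the liver carries them with its blood.

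The sequences of the members that could be measured are shown because they identify what the probes of the array were made for and how the genes lie in the genome. They come from RefSeq with build GRCm38.p6, where 2 of the 3 members matched a mature sequence, and the seed (bases 2 to 8) is in capitals. mmu-miR-451 lies at chr11:78073186-78073207 and mmu-miR-144 at chr11:78073047-78073066, both on the plus strand.
mmu-miR-451: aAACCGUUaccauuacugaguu
mmu-miR-144: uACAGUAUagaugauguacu

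The members share no seed. Their hairpins, with the mature miRNA in capitals, lie on the same strand at chr11:78073005-78073070 (miR-144) and chr11:78073170-78073241 (miR-451), with 99 bases between them and 237 bases from end to end.
Hairpin of miR-144: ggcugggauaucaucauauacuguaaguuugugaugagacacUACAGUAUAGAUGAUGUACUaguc
Hairpin of miR-451: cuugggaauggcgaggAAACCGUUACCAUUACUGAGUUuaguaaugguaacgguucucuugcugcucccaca

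One other miRNA of the table came near in its seed. mmu-miR-101a, a liver miRNA encoded at chr4:101346957-101346977 on the minus strand, has the same bases 2 to 7 as miR-144 and another base at position 8.
mmu-miR-101a: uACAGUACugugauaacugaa

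Values are scaled intensities: the scanner software's background-subtracted signal, averaged over spots and scaled to the same 75th percentile on every array. A floor of 22.2 intensity units was set, below which values have no order. Of the 650 entries, 139 were detected on at least 6 arrays and were tested, among them miR-451 and miR-144. Of these 139 entries, 109 never lay at the floor. The hepatocyte miRNA miR-122 lay between 29522 and 33199 intensity units, so the arrays carried the defining miRNA of the labelled tissue. Arrays of ZT18 to ZT46 stood on slide 1 and those of ZT50 to ZT62 on slide 2. Of the 109 entries, 31 had their lowest value at ZT30 and 23 at ZT38, while 26 had their highest at ZT22, 22 at ZT34 and 22 at ZT50. The median deviation of the entries was -0.07 log2 units at ZT30 and at ZT38, 0.01 at ZT22, 0.07 at ZT34 and 0.02 at ZT50.

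miR-451, which restrains a 14-3-3 adaptor protein during red cell formation and protects the cells from oxidants, was well above background on all 12 arrays. Its lowest scaled intensity was 1344 at ZT42, its median 1807 and its highest 2619.5 at ZT50, a span of 1.95-fold. By clock time, the pools of cycle 1 and of the cycle 24 h later stood at 2101 and 2619.5 at 2 h after lights on, at 1366 and 1905 at 6 h, and at 1649.9 and 1452 at 10 h. In the dark, the pools stood at 1837 and 1756 at 14 h, at 2361 and 1344 at 18 h, and at 1777 and 1963 at 22 h. The highest and the lowest pool of the dark were both taken at 18 h. Light and dark arrays overlapped over nearly their whole range.

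miR-144, which targets the oxidant-response factor NRF2 in red cell precursors, followed the same course at a lower signal. Its lowest scaled intensity was 68.8 at ZT30, its median 104 and its highest 174 at ZT50, a span of 2.53-fold. The pairs of pools 24 h apart stood at 115 and 174 at 2 h after lights on, at 68.8 and 105 at 6 h, and at 103 and 84.8 at 10 h. The pairs in the dark stood at 104 and 105 at 14 h, at 131 and 76.1 at 18 h, and at 104 and 115 at 22 h. The same pools as for miR-451 were high (ZT50 and ZT18) and low (ZT30, ZT42 and ZT58).

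**Figure D1:**
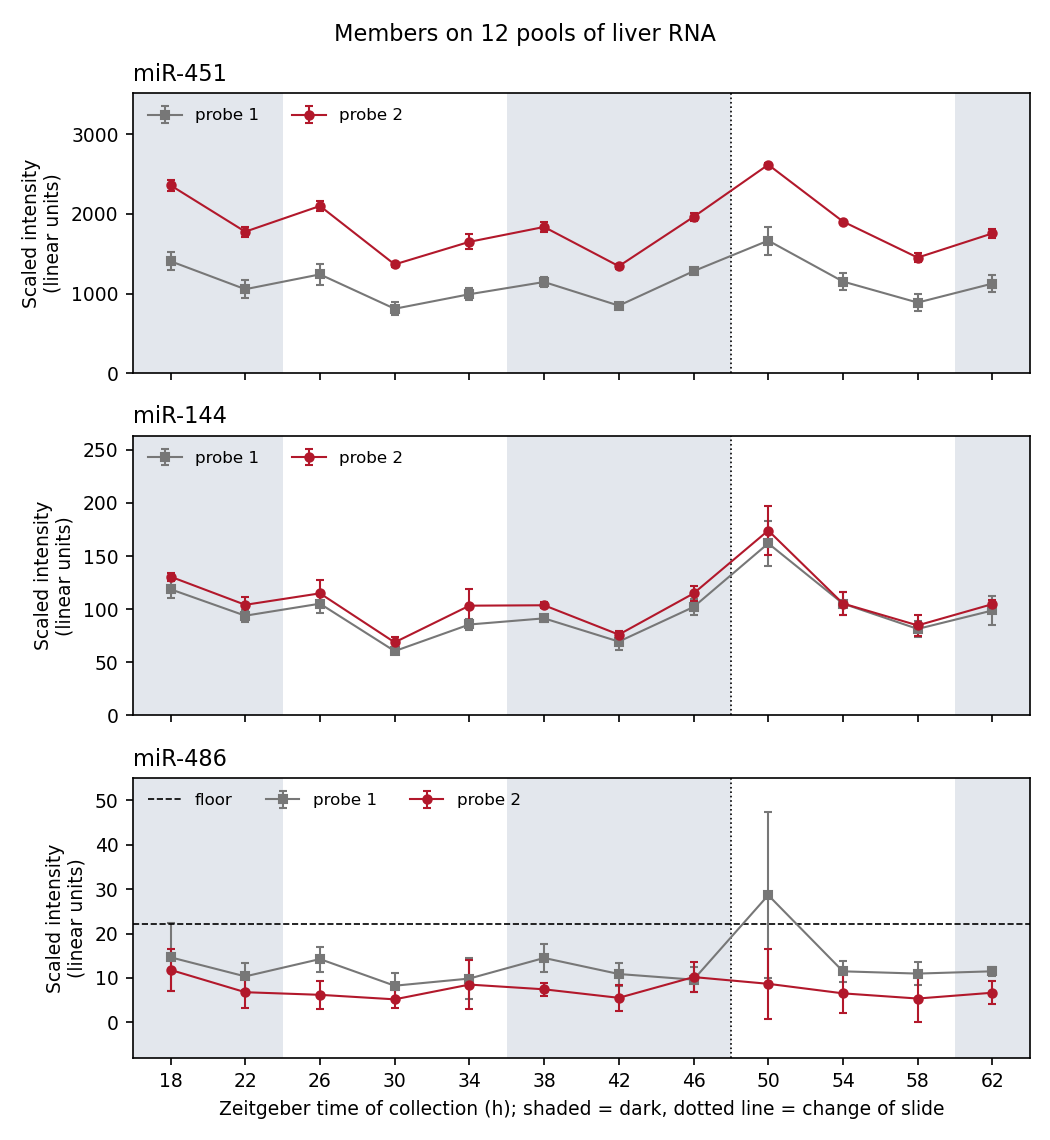
Scaled intensity (linear units) of both probes of each member against the zeitgeber time of collection, with the SD over spots of the probe on that array as error bars, which cover spot error only. Shaded areas are dark, the dotted line marks the change from slide 1 to slide 2, and miR-486 stayed under the floor of 22.2 units except for 1 probe at ZT50, whereas miR-451 and miR-144 had their highest pool (ZT50) and their lowest pools (ZT30 and ZT42) in common.

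The spread of both miRNAs between pools was wider than the error of the spots. Each member had 2 probes of 10 spots each on every array, less the spots marked as outliers. For the brighter probe of miR-451, the coefficient of variation of the spots lay between 0.619% and 5.74%, and the median standard error of its mean was 0.01 log2 units, against an SD between pools of 0.30. For the brighter probe of miR-144, the coefficient of variation lay between 2.79% and 15.6%, and the median standard error was 0.03 log2 units, against an SD between pools of 0.35. The dimmer probe of each miRNA moved the same way: it spanned 2.06-fold for miR-451 and 2.67-fold for miR-144, and the r between probes over the 12 arrays was 0.987 and 0.982. The probes share the array and its RNA, so their likeness speaks of the probe only.

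Among the 109 entries never at the floor, miR-144 had the highest SD over arrays and miR-451 the third highest, with miR-1895 (0.35 log2 units) between them. Among the 63 of these entries with a mean intensity above 100, where spot noise counts for less, miR-144 and miR-451 stood at ranks 1 and 2. The 95% interval of the SD was 0.25 to 0.59 log2 units for miR-144 and 0.21 to 0.50 for miR-451. The median SD of the 63 entries was 0.07, and the next entry, miR-1904, had 0.27. Outside the 109, some tested entries that lay at the floor on part of the arrays had higher SDs than miR-144. Among them were miR-181b (0.69 log2 units, at the floor on 1 array) and miR-802 (0.56, at the floor on 2). No test was made of these ranks, which describe 12 arrays. In bulk RNA, fewer red cells in a pool and less of the miRNA in each cell cannot be told apart.

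**Figure D2:**
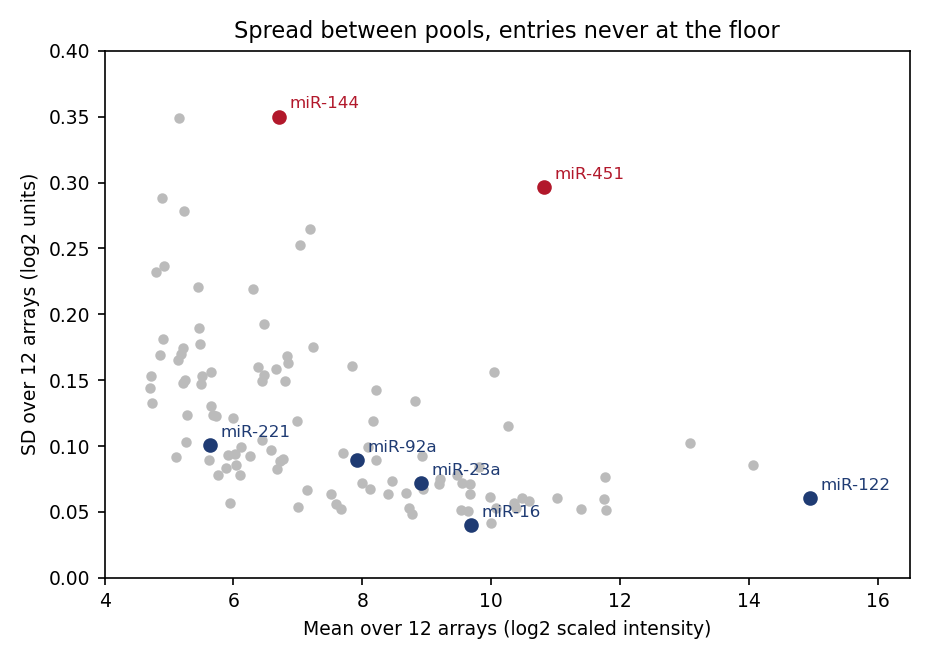
SD over 12 arrays (log2 units) against the mean over 12 arrays (log2 scaled intensity), 1 point for each of the 109 entries never at the floor. miR-144 (0.35) and miR-451 (0.30) lie above the entries of like intensity, while miR-16 (0.04) and miR-122 (0.06) lie at the bottom.

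miR-486 lay at or near background. Its brighter probe lay under the floor on 11 of 12 arrays, with signals between 8.25 and 14.7 that have no order, and stood at 28.7 at ZT50. The other probe, between 5.18 and 11.8, was under the floor on all 12. At ZT50 the coefficient of variation of the spots was 65.3%, so the 1 value above the floor was not separate from it. miR-486 therefore has only a bound, and no rhythm, fold or correlation is given for it.

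The scanner software nevertheless called miR-486 detected on 4 arrays, those of ZT18, ZT26, ZT38 and ZT50. In miR-451 these arrays held ranks 2, 3, 6 and 1 from the highest, and a relation of the calls to miR-451 was not tested. At ZT18, ZT26 and ZT38 both probes of miR-486 lay under the floor. Of the 611 mouse entries, 145 were called detected on 4 arrays or more and 397 on none. Among the 39 entries for miRNAs of a herpesvirus, whose presence the labels do not mention, 4 were called detected on 4 arrays or more. All of these were tested entries with calls on at least 6 arrays, so none is a like case to miR-486. The highest mean of a herpesvirus entry was 151 units. The single spots of miR-486 marked as well above background lay on 3 arrays for its brighter probe and on 0 for the other.

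Whether the members followed the time of day was tested with limma across all 139 tested entries, with Benjamini-Hochberg adjustment. The tests over clock times and between cycles take their error from pools 24 h apart. In the 24-h fit the error also holds departures of clock times from the fitted wave. In dark against light it also holds differences among the clock times of a phase. All p-values rest on pools of 2 livers, technical steps included, and say nothing of single mice. No 24-h rhythm passed: the fitted peak-to-trough fold was 1.30 for miR-451 (upper 95% limit 2.04, limma adjusted p = 0.957) and 1.31 for miR-144 (upper limit 2.27, limma adjusted p = 0.957). The median fitted fold of all tested entries was 1.08. The 24-h test called 0 of 139 entries (0%), and 5 (3.6%) had an unadjusted p under 0.05. The upper limits leave room for a rhythm of up to about those sizes in either miRNA.

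The order of the clock times was nearly the same in both miRNAs. The highest mean of miR-451 was 11.20 ± 0.23 log2 units (mean and SD of n = 2) in the pools of 2 h, followed by 10.87 ± 0.10 at 22 h, 10.81 ± 0.05 at 14 h and 10.80 ± 0.57 at 18 h. The lowest means were 10.66 ± 0.34 at 6 h and 10.60 ± 0.13 at 10 h. The SD of miR-451 within a clock time, between single pools, was 0.30 log2 units, and the SD of the clock-time means, each of 2 pools, was 0.21. Means of 2 pools vary less than single pools even without an effect of time, so these SDs cannot be ranked against each other. Of the neighbours in this order only 2 h and 22 h lay further apart than 0.30.

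For miR-144 the highest mean was 7.14 ± 0.42 log2 units (mean and SD of n = 2) in the pools of 2 h, followed by 6.77 ± 0.10 at 22 h, 6.70 ± 0.01 at 14 h, 6.64 ± 0.55 at 18 h, 6.55 ± 0.20 at 10 h and 6.41 ± 0.43 at 6 h. Its SD within a clock time was 0.35 log2 units and that of the clock-time means 0.25, with the same limit. Again only 2 h and 22 h lay further apart than the SD within a clock time. The limma F test over clock times gave an adjusted p of 0.805 for both, with 1.52-fold between the extreme means of miR-451 and 1.66-fold between those of miR-144, against a median of 1.15-fold over all tested entries. It called 0 of 139 entries (0%), and 6 (4.32%) had an unadjusted p under 0.05. Leaving out the array of ZT26, ZT46, ZT54 or ZT58 in turn gave 8, 2, 1 and 1 calls, with neither member among them.

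**Figure D3:**
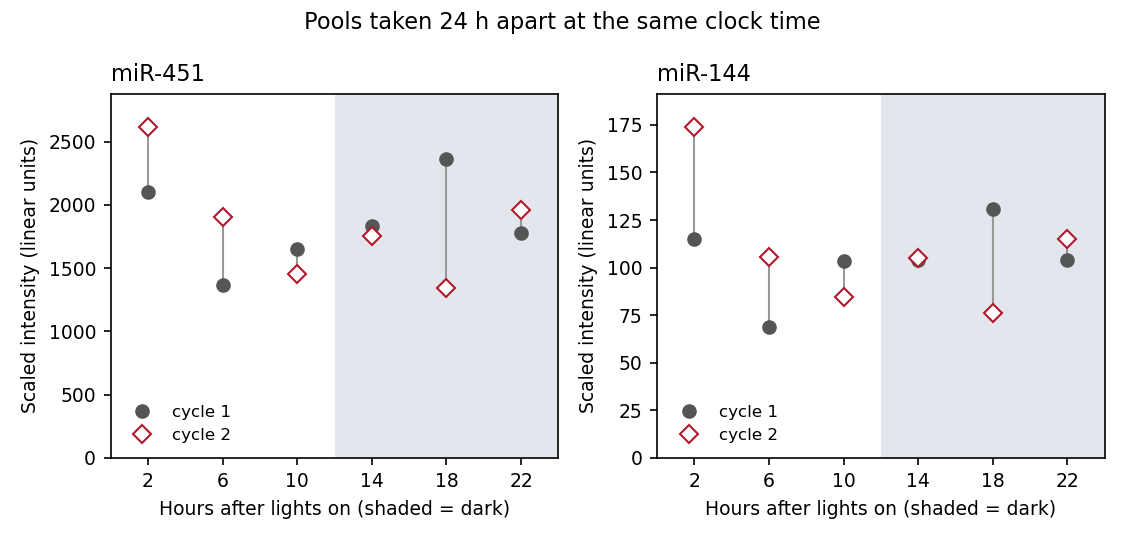
Scaled intensity (linear units, from 0) of miR-451 and miR-144 in the 2 pools of each clock time, joined by a line; filled circles are cycle 1, open diamonds cycle 2, and the shaded area is dark. The pools at 18 h lie 1.76-fold (miR-451) and 1.72-fold (miR-144) apart, and those at 14 h lie 1.05-fold and 1.01-fold apart.

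The SD within a clock time was about that over all 12 arrays, 0.30 and 0.30 log2 units for miR-451 and 0.35 and 0.35 for miR-144. The higher of each pair exceeded the lower by a median of 1.19-fold for miR-451 and 1.37-fold for miR-144. The widest pair of both was that of 18 h, at 1.76-fold for miR-451 and 1.72-fold for miR-144, and there cycle 1 was the higher. At 2 h and 6 h cycle 2 was the higher, by 1.25-fold and 1.39-fold for miR-451 and by 1.51-fold and 1.53-fold for miR-144.

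Light and dark could not be separated. miR-451 averaged 10.82 ± 0.35 log2 units (SD, n = 6) on light arrays and 10.83 ± 0.26 (SD, n = 6) on dark arrays, with a dark-over-light fold of 1.01 with a 95% interval of 0.774 to 1.31 (limma adjusted p = 1). miR-144 averaged 6.70 ± 0.45 on light arrays and 6.71 ± 0.26 on dark arrays, with a fold of 1.00 with an interval of 0.734 to 1.37 (limma adjusted p = 1). Of the 6 dark arrays, 3 lay above the light mean of miR-451 and 4 above that of miR-144. The median difference over all tested entries was -0.02 log2 units. The test called 0 of 139 entries (0%), and 11 (7.91%) had an unadjusted p under 0.05. Without the array of ZT30 it called 2 entries, neither of them a member.

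The cycles did not separate either member. With clock time in the model, the fold of cycle 2 over cycle 1 was 0.986 for miR-451 (95% interval 0.735 to 1.32, limma adjusted p = 1) and 1.04 for miR-144 (0.734 to 1.46, limma adjusted p = 0.965). Cycle 2 was the higher in 3 of 6 pairs for miR-451 and in 4 of 6 for miR-144. The test called 0 of 139 entries (0%), and 5 (3.6%) had an unadjusted p under 0.05. The median over all tested entries was 0.02 log2 units. All arrays of cycle 1 stood on slide 1, and of cycle 2 only ZT42 and ZT46 did, so cycle and slide largely coincided. With slide as a block, cycle 2 minus cycle 1 was -0.33 log2 units for miR-451 and -0.32 for miR-144, with no entry called. These values rest on the pairs of 18 h and 22 h alone, the only pairs with both pools on 1 slide. Those pairs differed by -0.81 and 0.14 log2 units for miR-451 and by -0.78 and 0.14 for miR-144. The limma test of whether the dark-light difference itself changed between cycles did not pass: the interaction was -0.45 log2 units for miR-451 and -0.52 for miR-144 (adjusted p = 0.951 for both).

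miR-144 followed miR-451 closely from pool to pool. Over the 12 arrays Pearson's r was 0.964 and Spearman's rho 0.965, each with a permutation p of 2e-05 (100000 draws, two-sided) and an adjusted p of 0.00526 over the 263 relations computed with either member. Without ZT50 and ZT42, the pools farthest from the median of miR-451, r was 0.942. Leaving out ZT50 alone gave 0.955. Within slide 1 (n = 8) r was 0.958, with a permutation adjusted p of 0.0678 at that number of arrays, and slide 2 held too few arrays for a value. The log2 difference between the miRNAs had an SD of 0.10 and spanned 1.32-fold, from ZT30 to ZT50, although miR-451 itself spanned 1.95-fold and miR-144 2.53-fold. At ZT30 (-4.31 log2 units, miR-144 minus miR-451) and ZT50 (-3.91), miR-144 lay further from its mean than miR-451 did. At the other extreme pools, ZT18 (-4.18) and ZT42 (-4.14), the difference lay near its mean of -4.12.

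**Figure D4:**
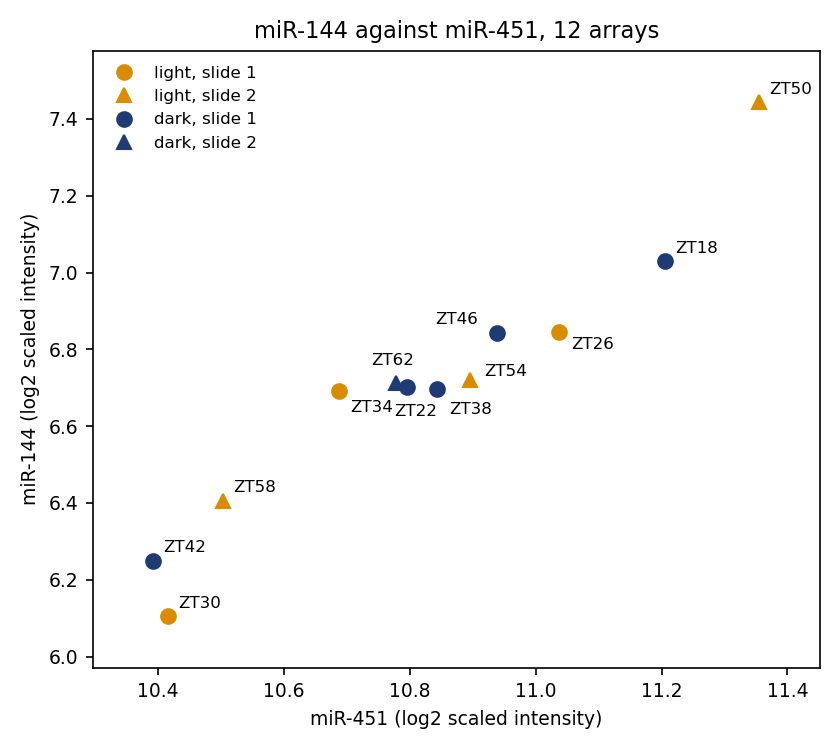
miR-144 against miR-451, both in log2 scaled intensity, 1 point for each of the 12 arrays, coloured by light and dark and shaped by slide. The points lie along a line (r = 0.964) from ZT42 and ZT30 at the bottom to ZT50 at the top, and light and dark arrays and both slides are mixed along it.

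Few other miRNAs were called as correlated with either member after adjustment. Of the 132 tested entries correlated with miR-451, 2 (1.52%) had an adjusted permutation p under 0.05 and 14 (10.6%) an unadjusted one. With miR-144, 2 of 132 (1.52%) passed the adjusted threshold and 16 (12.1%) the unadjusted one. Each count of 2 holds the other member and miR-221. Over the 108 entries that never lay at the floor, the median r was 0.0778 with miR-451 and 0.126 with miR-144. All these relations share the arrays and their scaling.

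miR-221, known from endothelial and blood-forming cells and as a repressor of the Kit receptor, lay between 44.0 units at ZT30 and 55.3 at ZT50, a span of 1.26-fold. Its r was 0.880 with miR-451 (rho 0.853) and 0.863 with miR-144 (rho 0.818), and the permutation adjusted p was 0.0245 for both values of r. The adjusted p of rho missed the threshold, at 0.0947 and 0.120. With 1 array left out, r stayed between 0.839 and 0.908 with miR-451 and between 0.806 and 0.904 with miR-144. Without ZT50 and ZT42, r with miR-451 was 0.883. Without ZT50 and ZT30, r with miR-144 was 0.731. At 11 arrays the adjusted permutation p of r was above 0.05 in 6 of 12 omissions with miR-451 (up to 0.178) and in 7 of 12 with miR-144 (up to 0.261). Its partner from the same primary transcript, miR-222, was called detected on 0 arrays.

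Next in likeness to miR-451 were miR-709 (r = 0.660), miR-690 (0.653) and miR-106b (0.641), and the lowest were miR-500 (-0.652) and miR-29a (-0.715). Next in likeness to miR-144 were miR-1904 (0.723), miR-30a* (0.718) and miR-151-5p (0.714), and the lowest were miR-30b (-0.510) and miR-29a (-0.628). The smallest adjusted permutation p among these was 0.346. Without ZT50 and ZT42, the pools farthest from the median of miR-451, the values of miR-709, miR-690 and miR-106b were 0.760, 0.392 and 0.631. Without ZT50 and ZT30, the pools farthest from the median of miR-144, the values of miR-1904, miR-30a* and miR-151-5p were 0.206, 0.0127 and 0.219, so these likenesses rested on those pools. miR-101a, which shares bases 2 to 7 with miR-144, lay between 239.8 and 282 units and had an r of 0.244 with miR-144.

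Other miRNAs that red cells hold, most of them made by many cell types, varied less between pools, with SDs from 0.04 (miR-16) to 0.17 log2 units (miR-185) among those tested. Of 13 listed, 12 were on the array and 8 were tested. Their r with miR-451 lay between -0.0958 (miR-425) and 0.641 (miR-106b). The median was 0.275, against 0.0778 over the 108 entries never at the floor. The adjusted threshold was passed by 0 of 8, against 1.52% of all relations with miR-451, a share from which 8 entries cannot be told apart. An unadjusted permutation p under 0.05 was reached by 2 of 8 (miR-106b and miR-15b), against 10.6% of all. miR-16, which is abundant in red cells and in liver cells alike, lay between 797 and 873 units and had an r of 0.0747 with miR-451. miR-92a had 0.0808, miR-25 had 0.245 and miR-15b had 0.590. miR-363, miR-182 and miR-183 were detected on 0 arrays, while 3 arrays gave a call for miR-96. The summed intensity of the 8 tested entries, of which miR-16 was the brightest, lay between 1637 and 1776 in the light and between 1594 and 1739 in the dark.

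miRNAs of other cells of the organ were set beside the members in the same way. Of 7 leukocyte and platelet miRNAs, 4 were tested, and their r with miR-451 was 0.504 for miR-142-3p, 0.570 for miR-142-5p, -0.0291 for the myeloid miR-223 and -0.252 for miR-146a. The summed intensity of these miRNAs lay between 461 and 571 in the light and between 461 and 543 in the dark, and miR-150, miR-155 and miR-146b were detected on 0 arrays. The endothelial miR-126-3p and miR-126-5p had -0.300 and 0.140. Among the hepatocyte miRNAs, miR-122 had 0.104, miR-192 had -0.0513, miR-194 had -0.366, miR-148a had 0.176 and miR-802 had 0.0466. Among the mesenchymal ones miR-143 had 0.134, miR-199a-3p had 0.0969 and miR-199a-5p had -0.198. None of these passed the adjusted permutation threshold, and their part in the spread of the members was not tested. miR-142-5p lay at the floor on 3 arrays and miR-802 on 2, so the r of each rests partly on values without order.

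**Figure D5:**
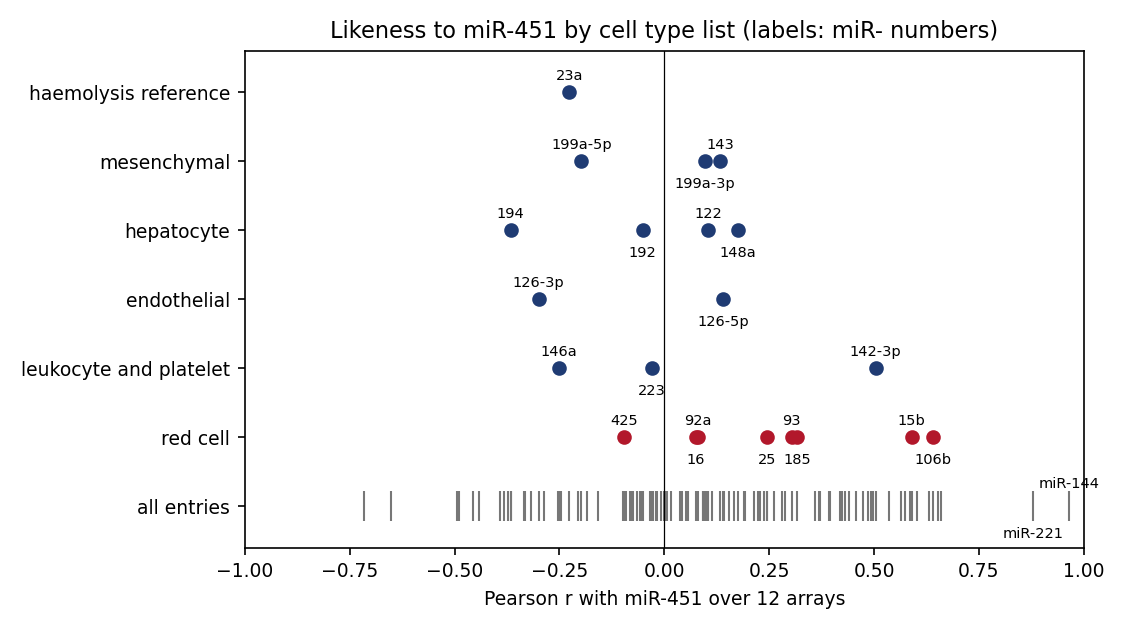
Pearson r with miR-451 over 12 arrays (horizontal axis) for the entries of each list that never lay at the floor, with all such entries as ticks in the bottom row. miR-144 (0.964) and miR-221 (0.880) stand apart at the right, and the red cell list spreads from -0.0958 to 0.641.

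In plasma, the log2 difference between miR-451 and miR-23a is in common use as an index of haemolysis, since miR-23a is little affected by it. In these livers miR-23a lay between 446 and 527 units, and the difference spanned 2.14-fold, from ZT42 to ZT50, with an SD of 0.32 log2 units. Taken against miR-122 the difference of miR-451 spanned 2.03-fold and that of miR-144 2.39-fold. Against miR-16 the difference of miR-451 spanned 1.95-fold. The SD of the difference of miR-451 was 0.30 log2 units against miR-122 and 0.30 against miR-16, and that of miR-144 was 0.35 against miR-122, close to the SDs under the scaling to the 75th percentile.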

How the data were processed

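One-colour (Cy3) miRNA arrays measured total RNA of 12 liver pools. The authors deposited linear spot intensities from which background had been subtracted by Agilent Feature Extraction (version 10.7.3.1 per the file headers, 9.5.3.1 per the submitters' processing notes). The build behind the probes is not given in the sources used here. The deposited series table differed by 0 from the scanner files.

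Outlier spots were left out, spots of a probe averaged, and arrays were brought to a common 75th percentile, taken over those 157 probes that every one of the 12 arrays detected (scaling factors 0.867 to 1.10). A floor of 22.2 was set, log2 values were computed from the deposited intensities, and each entry was represented by its brightest probe. The 139 entries with a detection call on 6 or more arrays were tested. The number of arrays limits the precision.

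Tests used limma 3.58.1 (trend) in R 4.3.3 with the package data.table, version 1.17.8. Correlations used permutation, adjusted by Benjamini-Hochberg over 263 relations. The tests were checked on simulated data. The members and all lists were chosen with earlier results of these data known. Entries named are the members, the listed cell type miRNAs and, for each measured member, the 5 entries highest and the 2 lowest in r. miR-222, miR-101a, miR-1895 and miR-181b were named after their values were seen. For the alternative background correction (normexp, offset 50) the median spot signal stood in for the mean signal the design had named, which was not used here. Alternatives also covered scaling, probe summary, filters, slides, single arrays left out and permutation in place of limma.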

Additional observations from a re-analysis of the deposited data

How the results depend on the processing

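Under the alternatives that could be run, neither miR-451 nor miR-144 passed any time test, apart from miR-451 under normexp. There the background fit failed on the array of ZT58 (fitted mean -409, against 18.1 to 23.7 on the others). The 24-h and the time-of-day test then called 1 entry each, miR-451, and r between miR-451 and miR-144 was -0.215. With that array left out as well, an alternative chosen after seeing the data, r was 0.957 and no time test called an entry. The SD of miR-144 was then 0.24 log2 units, against 0.35 under the main processing without ZT58. Within slide 1 the adjusted p of the members' r (0.958) rose to 0.0678 with fewer arrays, and the time-of-day test called 3 entries. Leaving out 1 array gave r between 0.955 and 0.973, SDs of 0.26 to 0.31 (miR-451) and 0.27 to 0.37 (miR-144), 0 to 8 time-of-day calls and 0 to 2 dark-against-light calls.

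The small differences between dark and light and between cycles changed sign, with no call. Dark minus light was -0.0030 for miR-451 and -0.019 for miR-144 with outlier spots kept, -0.045 and -0.069 under normexp without ZT58, and -0.0049 (mean of probes) and -0.34 (normexp) for miR-144. It lay between -0.070 and 0.12 (miR-451) and between -0.12 and 0.15 (miR-144) with 1 array left out. Cycle 2 minus cycle 1 was 0.015 (mean of probes) and 0.0082 (normexp without ZT58) for miR-451, and -0.48 (scaling over all probes), -0.011 (quantile) and -0.32 (slide as a block, or slide 1 only) for miR-144. It lay between -0.12 and 0.14 (miR-451) and between -0.062 and 0.22 (miR-144) with 1 array left out. Scaling over all probes shifted the median of all tested entries to 0.38 (dark minus light) and -0.50 (cycle), so the members lay near the median there too.

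miR-221 held least. Its r with miR-451 was -0.538 under normexp, where the background fit failed on ZT58, and 0.734 with that array left out as well. The call was lost in 8 of 14 alternatives with miR-451 (both of these included) and in 7 of 14 with miR-144. Otherwise r went down to 0.592 (miR-451) and 0.555 (miR-144) under quantile normalization. The cause of the losses under the other alternatives was not tested. Signal over background limits miR-486.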
